A study of Mus musculus with 47 samples.

Results

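RNA levels of 56 genes of mitosis, DNA replication and the passage from G1 into S phase were followed in luminal and basal epithelial cells of the mouse mammary gland through pregnancy, lactation and involution. The genes were listed by name for their cell cycle roles and were matched through their Ensembl identifiers: 56 of 56 were found among the 17078 genes of the normalized table. They comprised 27 mitosis genes, 14 S-phase genes, 8 G1/S cyclins and cyclin-dependent kinases (CDKs), 4 transcription factors and 3 CDK inhibitors. In both cell types 52 of the 56 had their highest mean level, as log2(CPM + 1) and as CPM, at day 3.5 of pregnancy (P3.5). *Ccnd2*, *Ccnd3*, *Cdkn1a* and *Cdkn1b* had their highest means at other time points.

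Cells were isolated by fluorescence-activated cell sorting (FACS) from FVB/N mice as lineage-negative CD24+ CD29lo (luminal) and lineage-negative CD24+ CD29hi (basal) cells, and their amplified RNA was sequenced, giving 46 libraries with values (24 luminal, 22 basal). The 8 groups of each cell type were mice never mated and taken at 10 weeks (W10), mice at P3.5 and at day 14.5 of pregnancy (P14.5), at days 3 and 10 of lactation (L3, L10), at day 2 and week 4 of involution after forced weaning (Id2, Iw4), and never-pregnant mice of 4 months (M4), which were matched in age to Iw4. Each group had 3 libraries, except basal P14.5 and basal L10 with 2. The labels name no transgene and no treatment other than mating and forced weaning at day 10 of lactation. Several mice were pooled for a sort, and the luminal and basal libraries of 1 sort carry the same replicate number, so that the spread between libraries is the spread between sorts of pooled mice.

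In dividing cells, S phase begins when D-type and E-type cyclins with their CDKs inactivate the retinoblastoma proteins and release E2F factors, which switch on the genes of DNA replication. The MCM proteins form the replicative helicase, *Cdc6* and *Cdt1* load it onto origins, geminin (*Gmnn*) restrains *Cdt1*, and ribonucleotide reductase (*Rrm1*, *Rrm2*) makes the building blocks of DNA. In G2 and mitosis, Cdk1 with B-type cyclins drives entry into mitosis, and checkpoint kinases, kinesins, kinetochore proteins and condensins separate the chromosomes. FoxM1 and B-Myb, the product of *Mybl2*, act with the MuvB complex on the promoters of mitosis genes, through the cell cycle genes homology region (CHR), while CCAAT boxes bind NF-Y. The mammary epithelium is known to proliferate in pregnancy, when ducts branch and alveoli form, and to differentiate for milk secretion thereafter.

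Promoters of 45 of the 56 genes were found in RefSeq (build GRCm38.p6), each covering 250 bases before to 50 bases after the start. The words searched on either strand were TTTGAA for the CHR, CCAAT for the CCAAT box, and for E2F the words TTCCCGC or TTGGCGC or TTCGCGC. Read on the opposite strand, TTGGCGC is spelled GCGCCAA and can overlap a CCAAT box. TTTGAA was found in 17 of 23 promoters of mitosis genes (73.9%), in 1 of 12 of S-phase genes (8.33%, *Mcm2*), in 14.7% of the promoters of the 11722 genes matched to the expression table and in 20.2% of the promoters of all 27025 genes in the RefSeq table. An E2F word was found in 5 of 23 mitosis promoters (21.7%), in 7 of 12 S-phase promoters (58.3%), in 15.5% of promoters of the expression table and in 9.2% of all promoters, so that the mitosis share was near that of the expression table. CCAAT was found in 20 of 23 mitosis promoters (87%), 8 of 12 S-phase promoters (66.7%), 41.9% of those of the expression table and 41.1% of all. Both TTTGAA and CCAAT were present in 16 of 23 mitosis promoters (69.6%), in 5.87% of those of the expression table and in 7.97% of all. A match is a run of letters and not a bound site. The 200 bases before the start are shown 5′ to 3′ for 5 mitosis genes and 2 helicase genes that recur in the results, with the matched words in capitals. *Cdk1*, *Mki67*, *Top2a* and *Ccnb2* hold TTTGAA (or TTCAAA, its reverse complement) and CCAAT boxes, *Ccnb1* shows none of the CHR words in this window, and the helicase genes *Mcm5* and *Mcm6* show E2F words. E2F words also stand in *Cdk1*, *Mki67* and *Ccnb1*, and CCAAT boxes also in *Ccnb1*, *Mcm5* and *Mcm6*.
Cdk1, chr10:69352913-69353112 (minus strand): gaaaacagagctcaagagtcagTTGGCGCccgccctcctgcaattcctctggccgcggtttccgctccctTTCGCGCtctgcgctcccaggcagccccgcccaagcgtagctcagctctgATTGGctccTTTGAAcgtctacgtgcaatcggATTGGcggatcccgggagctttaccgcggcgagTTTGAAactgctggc
Mki67, chr7:135716380-135716579 (minus strand): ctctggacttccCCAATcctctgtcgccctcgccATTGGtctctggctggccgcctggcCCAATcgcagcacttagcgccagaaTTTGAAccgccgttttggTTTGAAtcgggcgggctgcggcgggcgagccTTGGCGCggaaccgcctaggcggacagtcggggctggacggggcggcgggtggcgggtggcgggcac
Top2a, chr11:99024190-99024389 (minus strand): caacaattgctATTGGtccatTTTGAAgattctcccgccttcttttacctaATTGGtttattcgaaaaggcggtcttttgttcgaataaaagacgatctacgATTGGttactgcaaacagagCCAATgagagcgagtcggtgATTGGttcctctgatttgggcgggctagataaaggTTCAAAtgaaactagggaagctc
Ccnb2, chr9:70421555-70421754 (minus strand): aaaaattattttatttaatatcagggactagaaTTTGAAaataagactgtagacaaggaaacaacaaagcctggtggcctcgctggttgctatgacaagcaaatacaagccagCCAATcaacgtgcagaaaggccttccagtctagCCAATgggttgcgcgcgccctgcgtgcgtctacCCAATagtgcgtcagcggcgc
Ccnb1, chr13:100786487-100786686 (minus strand): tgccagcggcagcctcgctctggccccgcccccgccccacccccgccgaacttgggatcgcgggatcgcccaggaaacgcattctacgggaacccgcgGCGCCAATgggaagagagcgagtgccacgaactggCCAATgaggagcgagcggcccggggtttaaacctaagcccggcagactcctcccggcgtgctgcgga
Mcm5, chr8:75109309-75109508 (plus strand): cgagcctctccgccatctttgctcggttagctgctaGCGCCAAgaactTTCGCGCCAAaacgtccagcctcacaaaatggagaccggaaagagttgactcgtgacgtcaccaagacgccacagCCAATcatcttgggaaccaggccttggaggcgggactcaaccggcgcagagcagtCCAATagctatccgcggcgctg
Mcm6, chr1:128359706-128359905 (minus strand): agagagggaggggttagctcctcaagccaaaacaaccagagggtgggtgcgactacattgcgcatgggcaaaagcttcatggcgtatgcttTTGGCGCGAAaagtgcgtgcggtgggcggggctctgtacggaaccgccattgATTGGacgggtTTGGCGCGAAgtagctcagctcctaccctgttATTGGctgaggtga

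**Figure D1:**
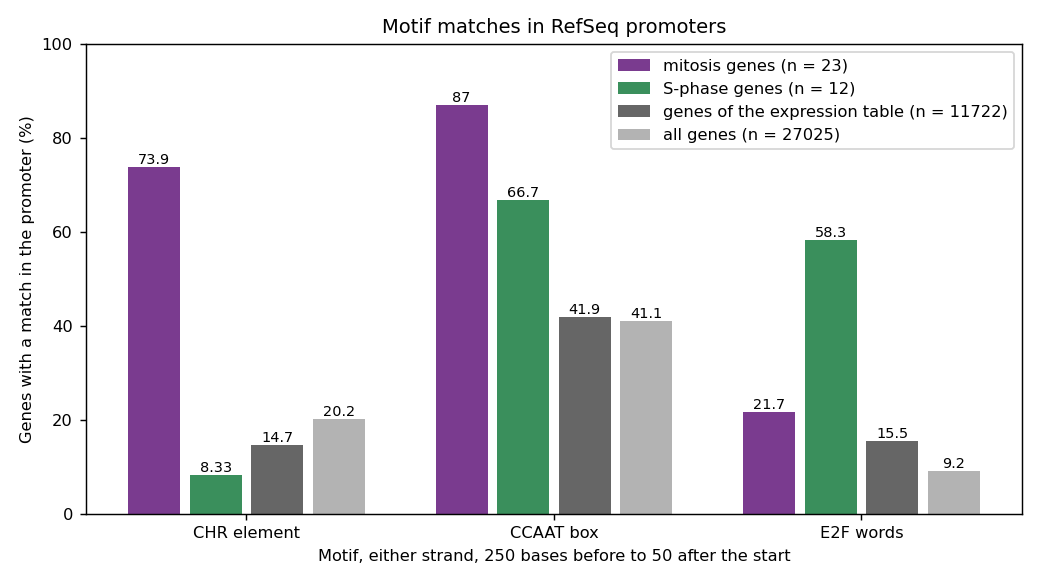
Share of RefSeq promoters (percent, vertical axis starting at 0) that hold the CHR word, the CCAAT box or an E2F word, for the mitosis members, the S-phase members, the 11722 genes matched to the expression table and all 27025 genes. The CHR word was in 73.9% of the mitosis promoters and 8.33% of the S-phase promoters, and E2F words were in 21.7% and 58.3%, against 14.7% (CHR) and 15.5% (E2F) in the expression table.

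Levels are given in CPM, a gene's reads relative to the library's total as scaled by the authors, and differences as log2 ratios of CPM + 1 from a limma fit over all 17078 genes. Called genes are those whose level changed 2-fold or more with an adjusted p (Benjamini-Hochberg, over all genes) under 0.01, and only these are said to have risen or fallen. Between 4398806 and 20023054 reads per library fell on genes (median 8518616), so that 3 reads corresponded to between 0.17 and 1.05 CPM. Of the 56 genes, 37 had at least 3 reads in each of the 46 libraries, and 45 of the 2576 values (1.75%) were below 3 reads. No low-value filter was applied, so all 56 were tested. In RNA from many cells a lower level can stem from fewer cycling cells or from less RNA in each, and the 2 cannot be told apart here.

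The labels held for most libraries by their markers. The lineage gate, by the study's methods, removed cells stained for CD11b and CD45 (myeloid and other white blood cells), CD31 (endothelial cells) and CD140a (a receptor of fibroblasts), among others, and no pericyte antibody is named. The antigen listed for CD140a is human, while the other lineage antigens are listed as mouse. The summed level of 11 luminal markers was 4135 to 10557 CPM in luminal and 347 to 2470 CPM in basal libraries. That of 12 basal markers was 108 to 2703 CPM in luminal libraries. In basal libraries it was 13365 to 81785 CPM, apart from the basal Id2 libraries of replicates 2 and 6, in which it was 1493 and 1199 CPM against 18708 CPM in replicate 4. The library of replicate 6 instead held 75980 CPM of fibroblast markers, with *Col1a1* as the most abundant gene, and that of replicate 2 held 19249 CPM of endothelial markers, with *Vwf* as the most abundant. Counts of calls that rest on these 2 libraries are therefore given with and without them. Each of the 12 basal markers was above 0 in the basal Id2 mean, and each was lower there than in the basal L10 mean. *Krt5*, *Krt14* and *Trp63* were at 56, 18.3 and 13.3 CPM in basal Id2, against 2840, 686 and 485 CPM in basal L10. Mean *Trp63* was 13.2 CPM in luminal Id2. *Acta2*, *Myh11* and *Mylk* led the basal Id2 mean, at 3150, 1979 and 1405 CPM. The study also reported lower *Trp63*, *Krt5* and *Krt14* in this population. Whether replicate 4 held mainly basal cells was not tested. Replicate 4 held 11707 CPM of fibroblast and 11923 CPM of pericyte markers. Pericyte markers, led by *Rgs5*, were also high in basal libraries of lactation, at 2030.5 to 8078 CPM at L3 and 9981 to 17387 CPM at L10, against 88 to 155 CPM at P3.5 and 1296 to 1444 CPM at P14.5, and were at 2703 to 11923 CPM at Id2. In luminal libraries they were at 116 to 344 CPM. All 8 pericyte markers were above 0 in each group, and the part of these cells in the basal levels from P14.5 to Id2 was not tested.

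The course of the mitosis genes was described by the mean log2(CPM + 1) of the 27 genes in each library. In luminal cells this mean was 2.76, 2.46 and 2.16 at W10, 5.49, 4.47 and 5.49 at P3.5, and 3.24, 3.61 and 3.36 at P14.5. It was then 2.12, 2.65 and 2.90 at L3, 4.07, 3.38 and 3.02 at L10, 1.90, 2.81 and 2.83 at Id2, 3.60, 2.00 and 3.97 at Iw4, and 4.24, 5.21 and 3.97 at M4. The 3 P3.5 libraries were above those of the other time points except for the M4 library of replicate 2, which fell within their range. In basal cells the mean was 2.66, 2.29 and 1.96 at W10, 6.05, 5.42 and 5.95 at P3.5, and 3.52 and 3.60 at P14.5. Lactation and involution gave 2.59, 2.65 and 3.25 at L3, 2.88 and 2.18 at L10, 2.58, 3.27 and 4.55 at Id2, 3.98, 2.37 and 4.30 at Iw4, and 2.84, 5.31 and 3.11 at M4. The basal P3.5 libraries were above the other basal libraries without overlap, with the M4 library of replicate 2 the next highest.

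**Figure D2:**
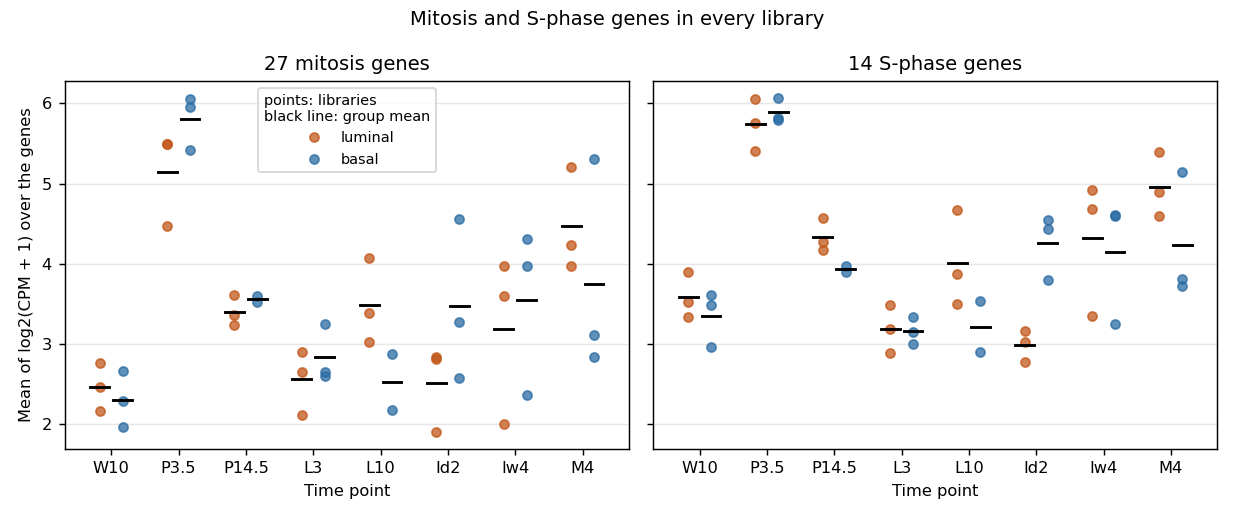
Mean log2(CPM + 1) of the 27 mitosis genes and of the 14 S-phase genes (vertical axes) in each library at the 8 time points (horizontal axis), with luminal and basal libraries as points and group means as black lines. The P3.5 libraries are the highest group in both cell types, and the mitosis means are spread most widely at M4, Iw4 and basal Id2.

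Tested across the 8 time points (limma F test), 41 of the 56 genes differed in luminal cells, where 34% of all genes did, and 51 in basal cells, where 44.5% of all genes did, and also 51 without the basal Id2 libraries of replicates 2 and 6. Ranked by the group mean of log2(CPM + 1), the exceptions to the maximum at P3.5 were *Ccnd2* and *Ccnd3* (highest at L3), *Cdkn1a* (Id2) and *Cdkn1b* (W10) in luminal cells, and *Ccnd2*, *Ccnd3* and *Cdkn1a* (L10) and *Cdkn1b* (L3) in basal cells. By mean CPM luminal *Cdkn1a* was instead highest at L10 and basal *Cdkn1b* at W10. On the log2 scale the lowest luminal mean was at Id2 for 25 genes, at W10 for 14 and at L3 for 12. The lowest basal log2 mean was at W10 for 22 genes, at L10 for 17 and at L3 for 10. Each of the 3 P3.5 libraries was above each other library for 8 genes in luminal cells (0.919% of all genes) and 31 in basal cells (3.49%). With M4 set aside the counts were 29 in luminal (1.8%) and 42 in basal cells (4.68%).

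**Figure D3:**
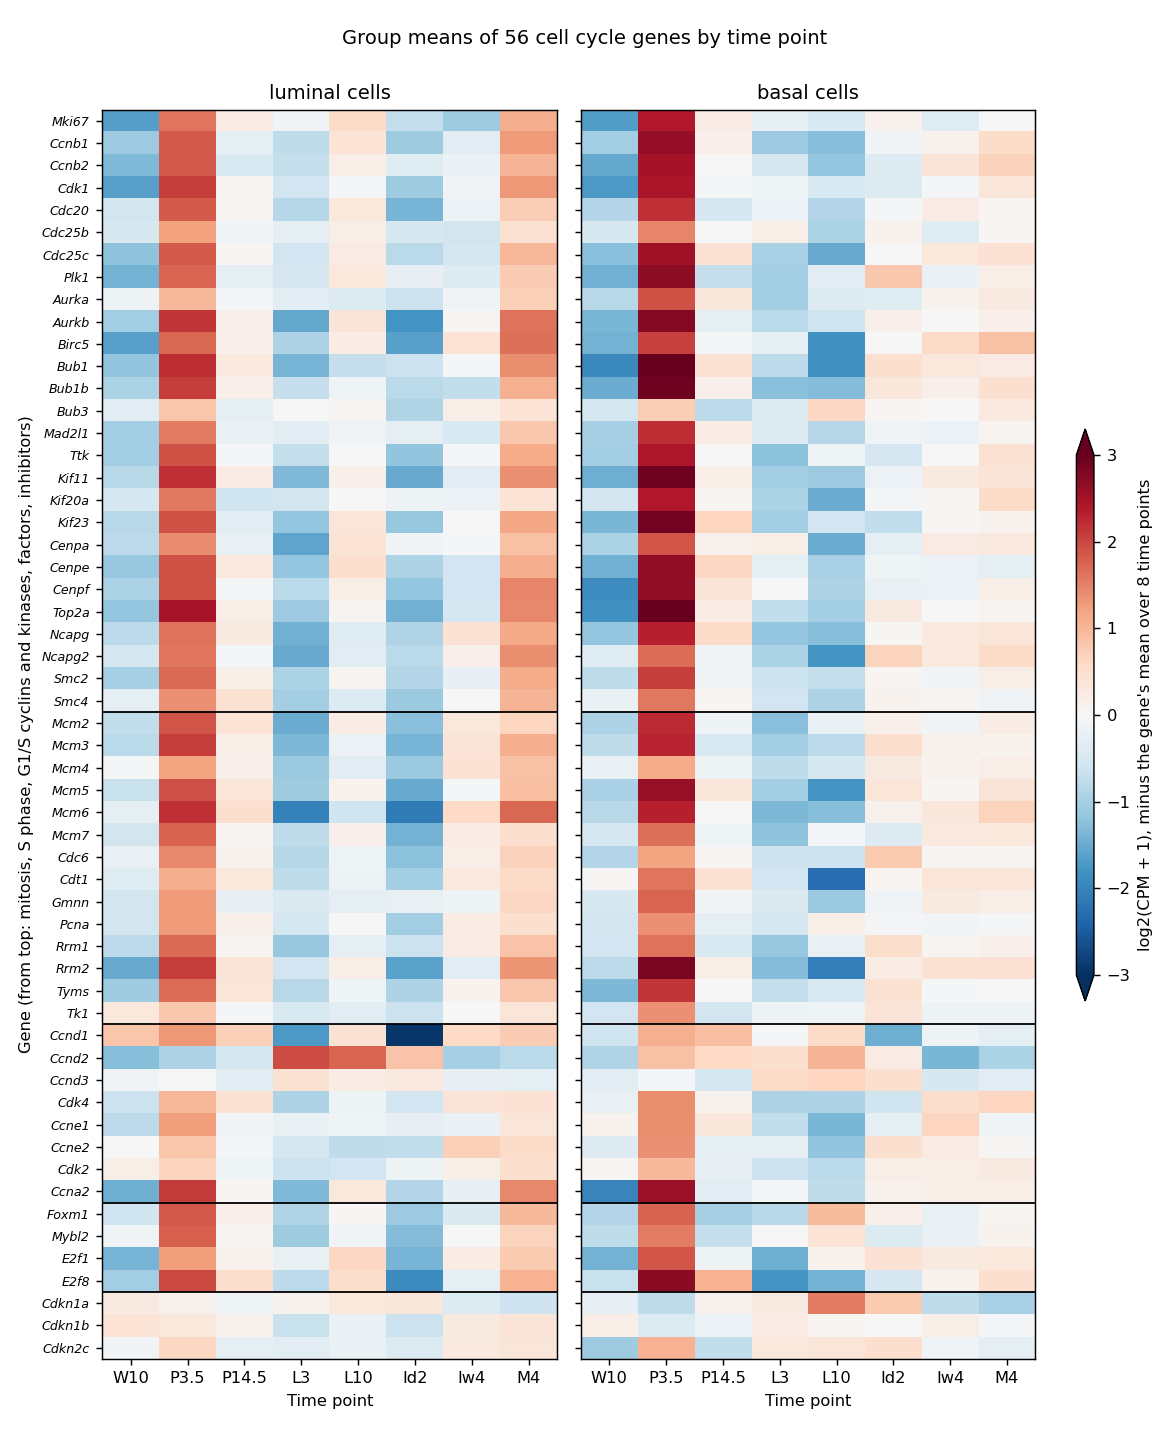
Mean level of each of the 56 genes (rows, grouped by role) at the 8 time points in luminal and basal cells (columns), coloured as the group mean of log2(CPM + 1) minus the mean of the gene over the 8 time points of that cell type. The P3.5 columns are the highest for 52 of 56 genes in each cell type.

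Early pregnancy was compared with the 10-week gland, first in luminal cells. Of the 56 genes, 25 rose from W10 to P3.5 and none fell, where 1.82% of all genes were called in either direction and 1.4% were called higher. The called genes were 13 of 27 mitosis genes, 8 of 14 S-phase genes, *Ccna2* and *Cdk4* of the 8 cyclins and CDKs, and 2 of 4 factors, *Foxm1* and *E2f8*. The median difference over the 56 was 2.44 on the log2 scale, against -0.06 over all genes. All 3 P3.5 libraries were above all 3 W10 libraries for 49 of the 56, as they were for 14.4% of all genes. W10 and P3.5 were amplified in different batches, so that time point and batch cannot be told apart in this comparison.

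*Mki67*, which encodes the Ki-67 protein that coats mitotic chromosomes, was in luminal cells at 84.05, 32.8 and 22.3 CPM at W10, 541, 167 and 627 CPM at P3.5, 152, 169 and 129 CPM at P14.5, 77.9, 99.01 and 214 CPM at L3, 298, 153 and 148 CPM at L10, 37.15, 99.9 and 122 CPM at Id2, 57.6, 19.5 and 186 CPM at Iw4 and 204, 514 and 183 CPM at M4. In basal cells it was at 55.6, 26.4 and 16.6 CPM at W10, 915, 292 and 476 CPM at P3.5, 129.9 and 94.8 CPM at P14.5, 50.7, 83.2 and 109 CPM at L3, 94.1 and 50.05 CPM at L10, 37.2, 104 and 292 CPM at Id2, 70.8, 28.9 and 193 CPM at Iw4 and 43.5, 419 and 47.2 CPM at M4. In luminal cells the P3.5 library of replicate 4 was well below the other P3.5 libraries and within the range of P14.5 and L10, but above the W10 libraries. From W10 to P3.5 luminal *Mki67* rose by 3.25 (SE 0.78, adjusted p = 0.0094), a call that was lost under 7 of 12 alternatives, among them edgeR (adjusted p = 0.024). Basal *Mki67* rose by 4.06 (SE 0.78, adjusted p = 0.00033) and kept its call under 12 of 12.

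*Cdk1*, the kinase that drives entry into mitosis, had the largest luminal rise, by 3.70 (SE 0.70, adjusted p = 0.0015). Its luminal levels were 0.504, 1.54 and 0.747 CPM at W10, 29.1, 16.2 and 27.5 CPM at P3.5, 4.64, 6.29 and 4.64 CPM at P14.5, 3.25, 1.88 and 3.86 CPM at L3, 3.46, 5.65 and 5.35 CPM at L10, 0.7904, 2.99 and 2.03 CPM at Id2, 11.2, 0.512 and 7.79 CPM at Iw4 and 13.5, 22.3 and 7.72 CPM at M4. Its basal levels were 1.77, 1.23 and 0.341 CPM at W10, 34.7, 27.4 and 46.1 CPM at P3.5, 7.02 and 4.12 CPM at P14.5, 2.17, 7.99 and 6.87 CPM at L3, 1.57 and 8.07 CPM at L10, 0.937, 4.55 and 10.7 CPM at Id2, 9.804, 1.61 and 8.99 CPM at Iw4 and 4.58, 34.00 and 2.29 CPM at M4. All P3.5 libraries were above the W10, P14.5 and lactation libraries in both cell types, and M4 replicate 2 reached the P3.5 range. Basal *Cdk1* rose by 4.16 (SE 0.70, adjusted p = 7.6e-05).

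*Top2a*, the topoisomerase that untangles sister chromosomes, was in luminal cells at 45.8, 21.8 and 12.8 CPM at W10, 397, 207 and 334 CPM at P3.5, 61.1, 67.2 and 55.9 CPM at P14.5, 19.8, 44.5 and 16.8 CPM at L3, 84.6, 65.6 and 33.4 CPM at L10, 6.52, 26.6 and 37.8 CPM at Id2, 77.95, 8.704 and 70.4 CPM at Iw4 and 148, 242 and 90.95 CPM at M4. Its basal levels were 32.9, 16.6 and 7.32 CPM at W10, 593, 466 and 392 CPM at P3.5, 58.5 and 82.1 CPM at P14.5, 40.9, 30.96 and 34.5 CPM at L3, 40.9 and 19.9 CPM at L10, 36.9, 63.2 and 156 CPM at Id2, 109, 16.8 and 114 CPM at Iw4 and 27.7, 236 and 36.1 CPM at M4. The basal P3.5 libraries were above each other basal library, whereas the luminal M4 library of replicate 2 lay within the luminal P3.5 range. From W10 to P3.5 *Top2a* rose in luminal cells by 3.63 (SE 0.74, adjusted p = 0.0027) and in basal cells by 4.81 (SE 0.74, adjusted p = 2.6e-05). The luminal call was lost under 4 of 12 alternatives and the basal call under none of 12.

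*Ccnb1*, which encodes cyclin B1, the partner of Cdk1, was the scarcer of the B-type cyclins. Its luminal levels were 0.705, 0.771 and 0.622 CPM at W10, 18.05, 6.69 and 13.6 CPM at P3.5, 1.47, 2.56 and 1.94 CPM at P14.5, 0.541, 0.471 and 3.16 CPM at L3, 4.79, 2.17 and 4.84 CPM at L10, 0.198, 0.749 and 1.42 CPM at Id2, 2.32, 0.512 and 3.83 CPM at Iw4 and 5.36, 17.3 and 4.79 CPM at M4. Its basal levels were 1.11, 0.615 and 1.53 CPM at W10, 27.1, 18.8 and 31.1 CPM at P3.5, 3.51 and 3.95 CPM at P14.5, 0.882, 1.14 and 0.928 CPM at L3, 1.57 and 0.1899 CPM at L10, 0.468, 3.39 and 9.05 CPM at Id2, 3.92, 1.34 and 7.52 CPM at Iw4 and 2.34, 15.4 and 3.35 CPM at M4. In luminal cells the P3.5 libraries were above those of the other groups except M4 replicate 2, and in basal cells they were above all of them. *Ccnb1* rose by 2.92 (SE 0.58, adjusted p = 0.0022) in luminal and by 3.67 (SE 0.58, adjusted p = 3.5e-05) in basal cells.

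Of the other luminal mitosis genes, the checkpoint kinase *Bub1* rose by 3.38 (SE 0.76, adjusted p = 0.0055), survivin (*Birc5*), a subunit of the chromosomal passenger complex, by 3.34 (SE 0.60, adjusted p = 0.00088), and the polo-like kinase *Plk1* by 3.17 (SE 0.72, adjusted p = 0.0061). Among the 14 mitosis genes that did not pass the test were the aurora kinases *Aurka* and *Aurkb*, *Cdc20*, which activates the anaphase-promoting complex, and the kinetochore genes *Cenpa*, *Cenpe* and *Cenpf*. Their differences were 1.12 (SE 0.54, adjusted p = 0.25) for *Aurka*, 2.40 (SE 0.66, adjusted p = 0.023) for *Cdc20* and 2.20 (SE 0.54, adjusted p = 0.011) for *Cenpa*. The number of luminal calls rested on single libraries: it was 3 without P3.5 replicate 2, 7 without P3.5 replicate 6, 10 without W10 replicate 6, 13 without W10 replicate 5, 18 without W10 replicate 3 and 24 without P3.5 replicate 4. edgeR on the recovered reads called 16, the fit with the sort as a block 29, and the fit with the milk protein genes left out of the scaling 37. The last fit also replaced the authors' normalization factors, and the part of the milk protein genes in its count was not tested. They were 1.01 to 2.60% of the reads of luminal W10 and 1.28 to 2.12% of those of luminal P3.5 libraries.

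In basal cells 47 of the 56 genes rose from W10 to P3.5 and none fell, where 6.76% of all genes were called in either direction and 4.97% were called higher. They were 27 of 27 mitosis genes, 13 of 14 S-phase genes, *Ccna2* and *Cdk4*, 4 of 4 factors and the inhibitor *Cdkn2c*. The genes that were not called were *Cdt1*, the D-type cyclins *Ccnd1*, *Ccnd2* and *Ccnd3*, the E-type cyclins *Ccne1* and *Ccne2*, *Cdk2*, *Cdkn1a* and *Cdkn1b*. The median difference was 3.00, against -0.10 over all genes, and the 3 P3.5 libraries were above the 3 W10 libraries for 52 of the 56 (18.9% of all genes) and below them for 1. Leaving out single libraries gave 37 to 44 calls. The 25 genes called in luminal cells were among the 47 called in basal cells, 100% of the luminal and 53.2% of the basal calls. The summed basal markers were at 21262 to 31182 CPM in W10 and 13876 to 16679 CPM in P3.5 basal libraries, and fibroblast markers, led by *Dcn*, at 307 to 457 CPM and 407 to 891 CPM, and their part in the differences was not tested.

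*Bub1* had the largest basal rise, by 4.94 (SE 0.76, adjusted p = 2.5e-05). Its basal levels were 1.33, 1.84 and 0.1703 CPM at W10, 72.1, 45.8 and 64.7 CPM at P3.5, 6.197 and 13.5 CPM at P14.5, 5.61, 1.396 and 4.27 CPM at L3, 0.961 and 1.33 CPM at L10, 5.15, 7.85 and 21.3 CPM at Id2, 18.00, 1.34 and 17.5 CPM at Iw4 and 3.05, 36.3 and 3.66 CPM at M4. In luminal cells it was at 1.71, 2.17 and 2.36 CPM at W10, 37.96, 20.2 and 38.7 CPM at P3.5, 7.34, 7.96 and 7.17 CPM at P14.5, 1.26, 1.65 and 2.104 CPM at L3, 5.46, 5.65 and 0.863 CPM at L10, 0.593, 7.49 and 5.696 CPM at Id2, 12.6, 1.02 and 10.2 CPM at Iw4 and 19.1, 30.9 and 8.42 CPM at M4. Its basal P3.5 libraries were above each other basal library, and the M4 library of replicate 2 came next. After *Bub1* and *Top2a*, the largest basal rises were those of *Ccna2*, cyclin A2, by 4.56 (SE 0.71, adjusted p = 2.8e-05), the kinetochore gene *Cenpf*, by 4.55 (SE 0.70, adjusted p = 2.6e-05), the checkpoint gene *Bub1b*, by 4.42 (SE 0.78, adjusted p = 0.00014), and the spindle kinesin *Kif11*, by 4.40 (SE 0.69, adjusted p = 3.1e-05).

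**Figure D4:**
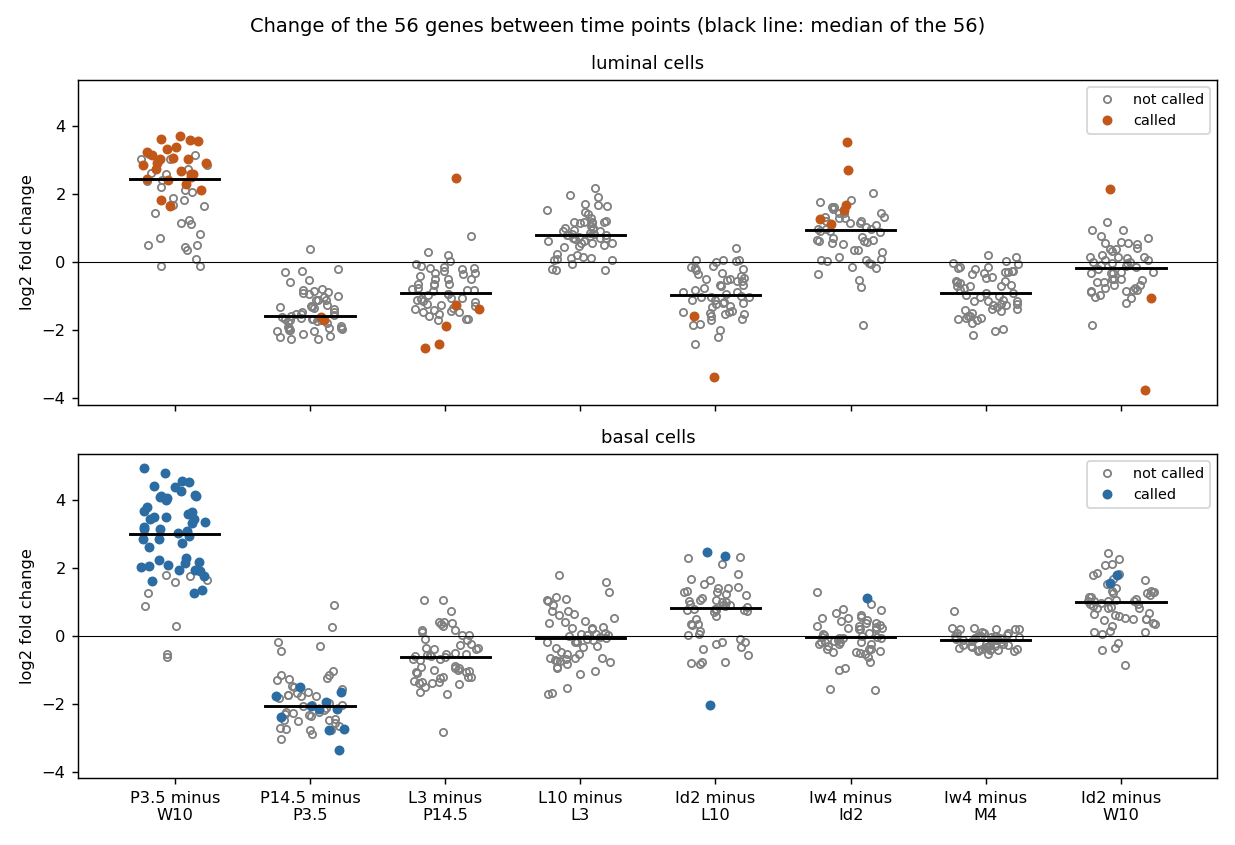
Difference of each of the 56 genes (log2 fold change of CPM + 1, vertical axis) in 8 comparisons of time points (horizontal axis), luminal cells above and basal cells below, with filled points for called and open points for other genes and black lines for the median of the 56. The median is 2.44 in luminal and 3.00 in basal cells from W10 to P3.5, and below 0 in both from P3.5 to P14.5.

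The S-phase genes rose in the same comparison, 8 of 14 in luminal and 13 of 14 in basal cells. *Mcm2*, a subunit of the replicative helicase, was in luminal cells at 18.6, 12.4 and 11.8 CPM at W10, 116, 65.1 and 97.5 CPM at P3.5, 30.2, 41.7 and 26.2 CPM at P14.5, 8.297, 6.71 and 8.77 CPM at L3, 69.6, 17.98 and 17.01 CPM at L10, 8.69, 7.86 and 12.2 CPM at Id2, 53.3, 12.97 and 38.8 CPM at Iw4 and 31.6, 59.9 and 28.6 CPM at M4. The basal libraries held 12.2, 13.5 and 6.56 CPM at W10, 111, 110.3 and 82.5 CPM at P3.5, 13.6 and 24.7 CPM at P14.5, 7.78, 5.33 and 12.4 CPM at L3, 13.8 and 22.6 CPM at L10, 13.4, 29.9 and 29.1 CPM at Id2, 31.7, 7.66 and 28.6 CPM at Iw4 and 15.5, 51.7 and 17.5 CPM at M4. Its P3.5 libraries were above those of each other group in both cell types, except that luminal L10 replicate 4 was above luminal P3.5 replicate 4. *Mcm2* rose by 2.61 (SE 0.50, adjusted p = 0.0017) in luminal and by 3.16 (SE 0.50, adjusted p = 3.7e-05) in basal cells.

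*Mcm5*, another helicase subunit, was in luminal cells at 31.5, 7.43 and 5.97 CPM at W10, 85.9, 61.2 and 78.5 CPM at P3.5, 20.01, 33.9 and 20.5 CPM at P14.5, 9.92, 15.5 and 3.51 CPM at L3, 42.98, 26.4 and 6.65 CPM at L10, 5.14, 7.11 and 5.696 CPM at Id2, 32.3, 4.27 and 36.9 CPM at Iw4 and 33.2, 46.6 and 29.1 CPM at M4. In basal cells it was at 8.72, 6.87 and 3.75 CPM at W10, 85.1, 78.9 and 90.6 CPM at P3.5, 15.5 and 17.6 CPM at P14.5, 7.62, 18.7 and 0.928 CPM at L3, 11.97 and 0.285 CPM at L10, 9.37, 19.4 and 26.2 CPM at Id2, 19.6, 4.303 and 26.97 CPM at Iw4 and 10.4, 45.4 and 10.2 CPM at M4. The P3.5 libraries were above each other library in both cell types. *Mcm5* rose in basal cells by 3.59 (SE 0.79, adjusted p = 0.0014). In luminal cells W10 replicate 3 was well above the other W10 libraries, and the difference of 2.60 (SE 0.79, adjusted p = 0.041) did not pass the test.

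*Rrm2*, the regulated subunit of ribonucleotide reductase, was in luminal cells at 3.33, 2.31 and 1.49 CPM at W10, 53.7, 27.9 and 39.4 CPM at P3.5, 10.4, 14.2 and 9.702 CPM at P14.5, 5.05, 4.12 and 7.36 CPM at L3, 16.6, 10.4 and 5.35 CPM at L10, 1.38, 3.37 and 1.83 CPM at Id2, 14.6, 1.02 and 12.6 CPM at Iw4 and 16.5, 36.3 and 19.5 CPM at M4. Its basal levels were 8.35, 6.15 and 3.07 CPM at W10, 92.1, 74.997 and 75.3 CPM at P3.5, 8.88 and 16.1 CPM at P14.5, 6.66, 3.43 and 1.76 CPM at L3, 3.93 and 0.475 CPM at L10, 3.44, 20.4 and 22.8 CPM at Id2, 19.8, 5.11 and 26.8 CPM at Iw4 and 9.87, 41.1 and 6.86 CPM at M4. Again only M4 replicate 2 reached the luminal P3.5 range, and no other basal library reached the basal range. *Rrm2* rose by 3.60 (SE 0.66, adjusted p = 0.0011) in luminal and by 3.65 (SE 0.66, adjusted p = 0.00017) in basal cells. *Cdt1*, which loads the helicase, was the S-phase gene not called in basal cells, with a difference of 1.58 (SE 0.50, adjusted p = 0.026).

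Other genes of the same pathways, 182 of a longer list, were counted for comparison. In luminal cells 50 of them rose from W10 to P3.5 and 1 fell, with a median difference of 1.65 over the list. In basal cells 102 rose and 2 fell, with a median of 1.88. Those that rose were 30 of 82 mitosis genes in luminal and 64 of 82 in basal cells, and 19 of 63 and 35 of 63 genes of DNA replication. The largest rises were those of *Ube2c*, the ubiquitin-conjugating enzyme of the anaphase-promoting complex, by 3.96 (SE 0.76, adjusted p = 0.0017) in luminal and 5.06 (SE 0.76, adjusted p = 2e-05) in basal cells, and of *Hmmr*, which acts at spindle poles, by 3.72 (SE 0.76, adjusted p = 0.0027) and 4.84 (SE 0.76, adjusted p = 3.3e-05). The antiproliferative gene *Btg2* fell in luminal cells by 2.05 on the log2 scale, and *Myc* fell in basal cells by 1.24. Of the 37 genes of the RB, E2F and DREAM list, which holds regulators that need not cycle, 1 rose and 1 fell in luminal cells, and 3 rose and 2 fell in basal cells.

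Whether the rise differed between the cell types was tested as an interaction. None of the 56 genes was called, where 0.0234% of all genes were called (limma, adjusted p only), 3 had an unadjusted p under 0.05, and edgeR called none. The median of basal minus luminal differences was 0.63, positive for 49 of the 56. The smallest p was that of thymidine kinase (*Tk1*), with a basal minus luminal difference of 1.45 that did not pass the test (95% confidence interval 0.34 to 2.57, adjusted p = 0.97). The larger number of basal calls is therefore not shown to be a difference between cell types.

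Late pregnancy was then compared with early pregnancy, within 1 amplification batch. By the labels, sequencing lane differed between the 2 time points here, as it did between L3 and L10 and between W10 and Id2. Time point and lane therefore cannot be told apart in these comparisons. The labels put the M4, Iw4 and L3 libraries on the same lane, more than the study states per lane, so the lane labels are uncertain. Since both comparisons use the same P3.5 libraries, a high value there raises the first difference and lowers the second. In luminal cells *Rrm1*, the large subunit of ribonucleotide reductase, and the helicase gene *Mcm7* fell from P3.5 to P14.5 and none rose, where 1.52% of all genes were called. The median difference was -1.58, with the 3 P14.5 libraries below the 3 P3.5 libraries for 47 of the 56 genes (15.7% of all genes). Unadjusted p was under 0.05 for 42 genes, edgeR called 1, and none was called when any 1 of the 6 libraries was left out. With the milk protein genes left out of the scaling, 4 genes fell. *Rrm1* was at 26.7, 20.7 and 25.02 CPM at W10, 169, 124 and 132 CPM at P3.5 and 36.5, 51.1 and 47.8 CPM at P14.5 and fell by 1.63 (SE 0.35, adjusted p = 0.0043). *Mcm7* was at 7.76, 7.71 and 6.597 CPM at W10, 48.1, 37.06 and 36.2 CPM at P3.5 and 8.65, 16.1 and 11.1 CPM at P14.5 and fell by 1.71 (SE 0.40, adjusted p = 0.0085). For both, the P14.5 libraries lay between those of P3.5 and W10 without overlap.

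In basal cells 11 genes fell from P3.5 to P14.5 and none rose, where 3.64% of all genes were called. They were 3 of 27 mitosis genes (*Plk1*, the condensin subunit *Smc2* and the checkpoint gene *Bub3*), 7 of 14 S-phase genes (*Mcm2*, *Mcm3*, *Mcm7*, the sliding clamp *Pcna*, *Rrm1*, thymidylate synthase *Tyms* and *Tk1*) and *Foxm1*. The median difference was -2.06, and both P14.5 libraries were below the 3 P3.5 libraries for 52 genes (22.2% of all genes). The basal P14.5 libraries held 12581 and 6429 CPM of fibroblast markers, with those of P3.5 at 407 to 891 CPM. Endothelial markers were at 381 to 896 CPM at P14.5 and 21.5 to 76.5 CPM at P3.5, and adipocyte markers at 99 to 268 CPM and 1.7 to 14.6 CPM. Milk protein genes were at 6201 to 53114 CPM at P14.5 and 416 to 668 CPM at P3.5. The part of other cells in the differences was not tested. *Plk1* was at 1.85, 0.718 and 0.596 CPM at W10, 50.5, 21.7 and 34.8 CPM at P3.5 and 1.45 and 3.62 CPM at P14.5 and fell by 3.37 (SE 0.80, adjusted p = 0.0061). *Foxm1*, a factor that drives mitosis genes, was at 13.97, 14.9 and 8.18 CPM at W10, 95.1, 66.1 and 79.5 CPM at P3.5 and 8.47 and 13.7 CPM at P14.5 and fell by 2.77 (SE 0.59, adjusted p = 0.0025). Both P14.5 libraries were below the P3.5 libraries for each gene, and they overlapped the W10 libraries. The call of *Plk1* was lost under 6 of 11 alternatives and that of *Foxm1* under 4. The count was 1 without P14.5 replicate 3, 2 without P14.5 replicate 5, 3 without P3.5 replicate 2 and 6 without either other P3.5 library, and edgeR called 4. In the interaction test of this change between cell types none of the 56 genes was called, where 0.193% of all genes were, none had an unadjusted p under 0.05 and edgeR called none. The median of basal minus luminal differences was -0.49.

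*Ccnd1*, cyclin D1, relays growth signals to CDK4 and CDK6. It was in luminal cells at 471, 387 and 439 CPM at W10, 663, 537 and 579.6 CPM at P3.5, 450.0, 354 and 382 CPM at P14.5, 88.9, 134 and 31.9 CPM at L3, 449, 302 and 266 CPM at L10, 23.5, 32.2 and 38.4 CPM at Id2, 471, 311 and 341 CPM at Iw4 and 411, 543 and 302 CPM at M4. The basal libraries held 228, 158 and 40.3 CPM at W10, 403, 432 and 269 CPM at P3.5, 244 and 422 CPM at P14.5, 202, 198 and 114 CPM at L3, 249 and 263 CPM at L10, 143, 72.2 and 22.9 CPM at Id2, 276, 64.9 and 203 CPM at Iw4 and 116, 198 and 127 CPM at M4. Luminal levels at L3 and Id2 were below those of the other groups without overlap. The basal W10, Id2 and Iw4 libraries were each spread over a wide range. From W10 to P3.5 *Ccnd1* differed by 0.45 (SE 0.52, adjusted p = 0.73) in luminal and by 1.66 (SE 0.52, adjusted p = 0.024) in basal cells, neither called.

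*Ccnd2*, cyclin D2, was the member that separated the cell types. In basal cells it was at 120.1, 93.6 and 72.2 CPM at W10, 437, 298 and 262 CPM at P3.5, 289 and 243 CPM at P14.5, 330.4, 294 and 154 CPM at L3, 306 and 419 CPM at L10, 96.7, 417 and 225 CPM at Id2, 47.95, 67.6 and 95.95 CPM at Iw4 and 80.2, 125 and 74.8 CPM at M4. In luminal cells it was at 0.907, 2.94 and 2.24 CPM at W10, 2.36, 2.23 and 3.75 CPM at P3.5, 6.95, 2.65 and 3.04 CPM at P14.5, 18.2, 65.1 and 15.1 CPM at L3, 6.92, 51.04 and 30.9 CPM at L10, 5.73, 12.9 and 21.8 CPM at Id2, 0.902, 5.803 and 2.43 CPM at Iw4 and 2.88, 2.49 and 3.74 CPM at M4. The luminal libraries were below the basal ones at each time point without overlap, and came nearest to them from L3 to Id2. Luminal *Ccnd2* had its highest group means at L3 and L10, and the summed basal markers of luminal libraries were 562 to 1483 CPM at L3, 408 to 2703 CPM at L10, 163 to 323 CPM at Id2 and 108 to 409 CPM at the other time points, and the part of basal cells in this was not tested.

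*Cdkn1a* encodes p21, an inhibitor of CDKs. It was in luminal cells at 369, 572 and 633 CPM at W10, 384, 801 and 331 CPM at P3.5, 610.5, 191 and 514 CPM at P14.5, 596, 643 and 245 CPM at L3, 529, 865 and 330.4 CPM at L10, 478, 588 and 545 CPM at Id2, 542, 407 and 150.1 CPM at Iw4 and 367, 268 and 217 CPM at M4. Its basal levels were 829, 376 and 192 CPM at W10, 149, 486 and 278 CPM at P3.5, 569 and 458 CPM at P14.5, 549, 823 and 381 CPM at L3, 1609 and 1181 CPM at L10, 2191, 1376 and 172 CPM at Id2, 392, 248 and 207 CPM at Iw4 and 364, 207 and 179 CPM at M4. The luminal libraries showed no maximum at P3.5. Basal L10 and 2 of 3 basal Id2 libraries were above the other basal libraries. From W10 to P3.5 it differed by -0.13 (SE 0.62, adjusted p = 0.97) in luminal and -0.52 (SE 0.62, adjusted p = 0.65) in basal cells, and *Cdkn1b*, p27, by -0.11 (SE 0.26, adjusted p = 0.91) and -0.62 (SE 0.26, adjusted p = 0.098). *Cdkn2c*, p18, rose in basal cells by 2.10 (SE 0.47, adjusted p = 0.0016).

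**Figure D5:**
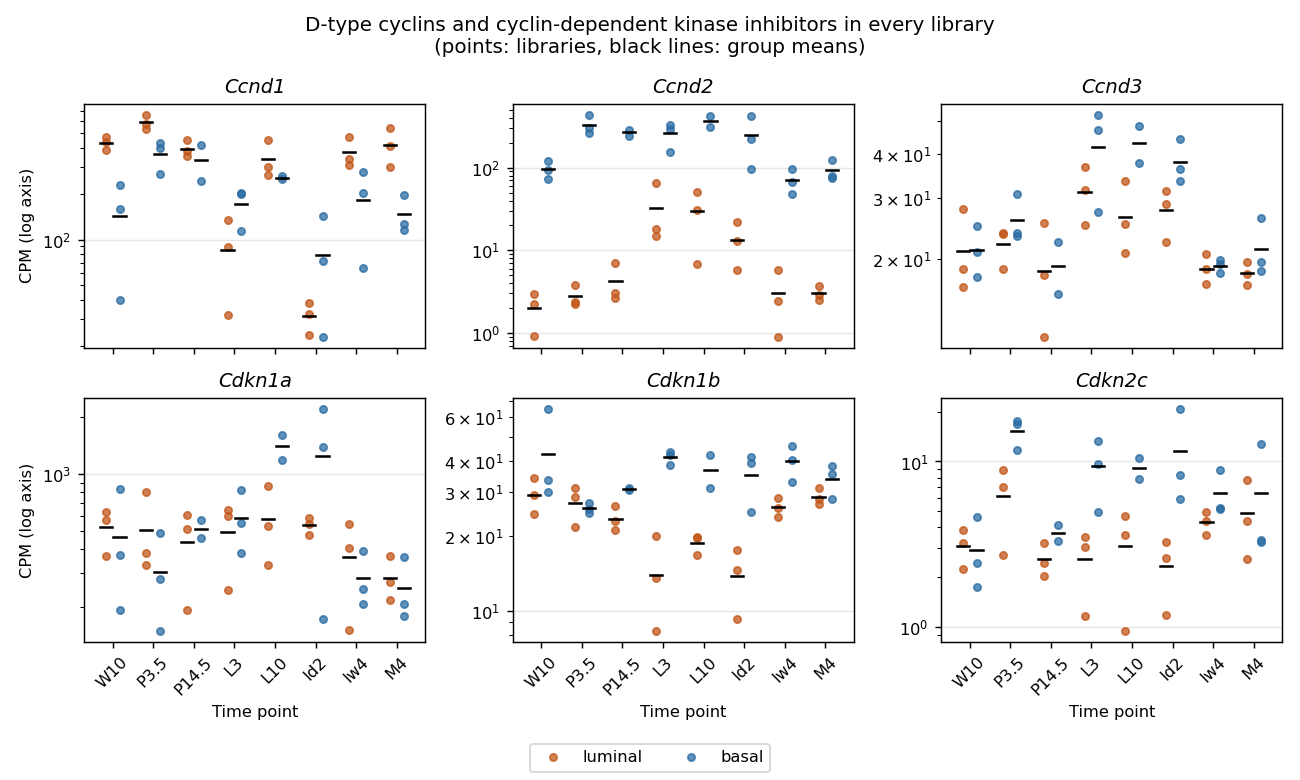
Levels (CPM, log axis) of the D-type cyclins *Ccnd1*, *Ccnd2* and *Ccnd3* and the inhibitors *Cdkn1a*, *Cdkn1b* and *Cdkn2c* in each library at the 8 time points, luminal and basal, with group means as black lines. Luminal *Ccnd1* drops at L3 and Id2, and *Ccnd2* is higher in basal than in luminal libraries at each time point.

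The start of lactation was examined from P14.5 to L3, which lie in different amplification batches. In luminal cells 5 genes fell and 1 rose, where 6.17% of all genes were called, and the median difference was -0.90. The helicase genes *Mcm6*, *Mcm2* and *Mcm4*, *Ccnd1* and *Cdk4*, the partner of the D-type cyclins, fell, and *Ccnd2* rose. *Mcm6* was at 31.7, 59.1 and 39.4 CPM at P14.5 and 6.67, 9.06 and 4.21 CPM at L3 and fell by 2.54 (SE 0.59, adjusted p = 0.0029). *Ccnd1* fell by 2.42 (SE 0.52, adjusted p = 0.0013). *Ccnd2* rose by 2.48 (SE 0.55, adjusted p = 0.0018), with the basal marker sums given above. The sum of macrophage markers was at 267 to 510 CPM in luminal P14.5 and 1041 to 1620 CPM in luminal L3 libraries. Most of it was *Cd14*, with means of 332 and 1194 CPM. Means of *C1qa*, *C1qb*, *C1qc* and *Mrc1* were also higher at L3, and those of *Csf1r*, *Cd68*, *Adgre1*, *Lyz2* and *Aif1* were lower. The part of macrophages in these changes was not tested. For *Mcm6*, *Ccnd1* and *Ccnd2* the L3 and P14.5 libraries did not overlap. All L3 libraries were below all P14.5 libraries for 31 of the 56 genes (16.9% of all genes). The number of calls was 1 without P14.5 replicate 5, 2 without P14.5 replicate 3 or L3 replicate 6, 3 without L3 replicate 4 and 4 without either other library, and edgeR called 4. In basal cells none was called, where 3.89% of all genes were, 10 had an unadjusted p under 0.05 and edgeR called none, and the fit with the sort as a block called 1. The median was -0.61.

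Within lactation, from L3 to L10, no gene was called in either cell type. In luminal cells, where 0.381% of all genes were called, 16 had an unadjusted p under 0.05, edgeR called none, and the median was 0.79, positive for 52 of the 56. In basal cells, where 1.14% of all genes were called, 10 had an unadjusted p under 0.05, edgeR called none and the median was -0.08. These 4 groups share 1 amplification batch.

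At involution day 2 luminal *Ccnd1* reached its lowest level. From L10 to Id2, *Ccnd1* fell by 3.38 (SE 0.52, adjusted p = 3.2e-05) and *Mcm7* fell by 1.59 (SE 0.40, adjusted p = 0.007) in luminal cells, where 4.56% of all genes were called, and no gene rose. The *Ccnd1* call held under 12 of 12 alternatives and the *Mcm7* call was lost under 5 of 12. Macrophage markers were at 793 to 1570 CPM in luminal L10 and 2679 to 4393 CPM in luminal Id2 libraries. Most of each sum was *Cd14*, at means of 1040.5 and 3124 CPM. Fibroblast markers were at 53 to 938 CPM and 290 to 5477 CPM. The part of macrophages and fibroblasts in these changes was not tested. *Mcm7* was at 20.9, 10.7 and 8.81 CPM at L10 and 2.57, 4.304 and 3.87 CPM at Id2. In basal cells 2 genes rose and 1 fell, where 13.3% of all genes were called. The condensin gene *Ncapg2* was at 4.28 and 5.603 CPM at L10 and 12.6, 39.4 and 61.9 CPM at Id2 and rose by 2.47 (SE 0.52, adjusted p = 6e-04). *Cdt1* was at 1.05 and 0 CPM at L10 and 5.15, 8.62 and 5.66 CPM at Id2 and rose by 2.36 (SE 0.56, adjusted p = 0.0018). *Ccnd1* fell by 2.02 (SE 0.58, adjusted p = 0.0089), a call lost under 8 of 12 alternatives. Pericyte markers were at 9981 to 17387 CPM in the basal L10 and 2703 to 11923 CPM in the basal Id2 libraries. Fibroblast markers were at 1803 to 2209 CPM and 3420 to 75980 CPM, and endothelial markers at 785 to 1560 CPM and 604 to 19249 CPM. Basal markers summed to 58011 to 66526 CPM at L10 and 1199 to 18708 CPM at Id2. The part of other cells in these changes was not tested. Without the Id2 libraries of replicates 2 and 6, an alternative chosen after seeing the data, 1 gene was called, with the 1 library left assumed to vary like the other groups. With median-ratio scaling, or with the milk protein genes left out of the scaling, 2 genes rose and none fell. L10 and Id2 lie in different amplification batches.

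Id2 was also compared with W10, which shares its amplification batch. In luminal cells *Ccnd1* fell by 3.77 (SE 0.52, adjusted p = 1.5e-06), *Cdkn1b* fell by 1.07 (SE 0.26, adjusted p = 0.0026) and *Ccnd2* rose by 2.15 (SE 0.55, adjusted p = 0.0043), where 10.4% of all genes were called. *Cdkn1b* was at 24.6, 34.3 and 29.1 CPM at W10 and 9.29, 14.6 and 17.5 CPM at Id2, and the 2 groups did not overlap. With the milk protein genes left out of the scaling, 4 genes fell and none rose. The luminal Id2 libraries held 2679 to 4393 CPM of macrophage markers against 408 to 526 CPM at W10, most of it *Cd14* (mean 3124 CPM), with 10 of 10 markers above 0. Fibroblast markers, led by *Col1a1*, were at 290 to 584 CPM in luminal Id2 replicates 2 and 4 and 5477 CPM in replicate 6, against 180 to 456 CPM at W10, and the part of either cell type in these differences was not tested. The *Ccnd2* call was lost under 5 of 12 alternatives and that of *Cdkn1b* under 2. In basal cells *Tyms* rose by 1.80 (SE 0.49, adjusted p = 0.0043) and *Cdkn2c* by 1.57 (SE 0.47, adjusted p = 0.0096), where 17.4% of all genes were called. *Tyms* was at 8.796, 8.303 and 5.71 CPM at W10 and 26.2, 22.5 and 39.8 CPM at Id2. *Cdkn2c* was at 2.44, 1.74 and 4.599 CPM at W10 and 8.28, 5.91 and 20.7 CPM at Id2. The groups did not overlap for either gene, and neither was called without the basal Id2 libraries of replicates 2 and 6. With the milk protein genes left out of the scaling, 0 basal genes were called. The *Tyms* call was lost under 6 of 13 alternatives and that of *Cdkn2c* under 7 of 13. In basal libraries fibroblast markers were at 307 to 457 CPM at W10 and 3420 to 75980 CPM at Id2, pericyte markers at 164 to 201 CPM and 2703 to 11923 CPM, and endothelial markers at 120 to 253 CPM and 604 to 19249 CPM, and their part in these changes was not tested.

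From Id2 to Iw4, across batches, 6 genes rose in luminal cells, where 10.5% of all genes were called: *Ccnd1* by 3.54 (SE 0.52, adjusted p = 4.1e-06), *Mcm6* by 2.72 (SE 0.59, adjusted p = 0.00091), and *Mcm7*, *Mcm4*, *Pcna* and *Bub3* by 1.67, 1.53, 1.26 and 1.11. *Mcm6* was at 1.98, 8.61 and 10.6 CPM at Id2 and 69.6, 17.6 and 70.5 CPM at Iw4, and the groups did not overlap. The count was 1 without Iw4 replicate 3, 2 without Iw4 replicate 6 and 11 without Iw4 replicate 5. It was 16 with the milk protein genes left out of the scaling, which also replaced the authors' normalization factors. Milk protein genes were 24.3 to 32.3% of the reads of luminal Id2 libraries, and their part in this count was not tested. Macrophage markers in luminal libraries were at 2679 to 4393 CPM at Id2 and 301 to 539 CPM at Iw4. Most of each sum was *Cd14*, at means of 3124 and 417 CPM. Fibroblast markers were at 290 to 5477 CPM and 166 to 511 CPM. The part of macrophages and fibroblasts in these changes was not tested. In basal cells *Cdk4* rose by 1.10 (SE 0.31, adjusted p = 0.0054), from 32.8, 46.4 and 79.02 CPM at Id2 to 123, 85.2 and 118 CPM at Iw4, where 17.4% of all genes were called. This call was not made without the basal Id2 libraries of replicates 2 and 6. The 1 library then left, of replicate 4, was at 46.4 CPM, still below each Iw4 library. At Iw4 the basal libraries held 455 to 2241 CPM of fibroblast and 203 to 423 CPM of pericyte markers, against the Id2 values above. Median-ratio scaling gave 1 gene that rose and 1 that fell, and edgeR none that rose and 1 that fell.

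The gland 4 weeks into involution was set against the never-pregnant gland of the same age. None of the 56 genes was called in luminal cells (0% of all genes called, edgeR none), although 17 had an unadjusted p under 0.05, each lower at Iw4, and 53 of the 56 differences were below 0 with a median of -0.91. In basal cells none was called (0.00586% of all genes) and none had an unadjusted p under 0.05, with edgeR also calling none. Adjusted p was 1 for *Mki67* in both, with differences of -2.14 (95% confidence interval -3.72 to -0.57) in luminal and -0.37 (-1.95 to 1.20) in basal cells. These groups were spread over the same amplification batches.

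The cell types were compared at each time point. *Ccnd2* was higher in basal cells at all 8, by 5.02 at W10, 6.45 at P3.5, 5.77 at P14.5, 3.18 at L3, 3.93 at L10, 4.03 at Id2, 4.28 at Iw4 and 4.52 at M4 on the log2 scale, and kept its call in each alternative run at each time point. It was the single gene called at P3.5 (11.9% of all genes called), P14.5 (12.9%), Iw4 (11.5%) and M4 (12.4%). At W10, where 14.2% of all genes were called, *Ccnd1* was also lower in basal cells, with a difference of -1.92 (SE 0.52, adjusted p = 0.0051), a call lost under 5 of 12 alternatives, edgeR among them. At L3 (25.8%) basal cells were also higher in *Cenpa*, the centromeric histone, by 1.92 (SE 0.54, adjusted p = 0.0044), in *Cdkn1b* by 1.58 (SE 0.26, adjusted p = 4.7e-06) and in *Cdkn2c* by 1.51 (SE 0.47, adjusted p = 0.0096). *Cenpa* was at 0.361, 2.001 and 1.05 CPM at L3 in luminal and 5.61, 6.98 and 7.61 CPM at L3 in basal cells, without overlap, and its call was lost under 6 of 12 alternatives. The pericyte markers of the basal L3 libraries, given above, were at 189 to 233 CPM in luminal L3 libraries.

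At L10, where 24.7% of all genes were called, *Cdt1* and *Birc5* were lower in basal cells. *Cdt1* was at 18.2, 6.31 and 10.7 CPM at L10 in luminal and 1.05 and 0 CPM at L10 in basal cells, and *Birc5* at 19.6, 3.19 and 3.63 CPM at L10 and 0.349 and 0 CPM at L10, so that each gene was listed at 0 in 1 of the 2 basal libraries. The differences were -3.04 (SE 0.56, adjusted p = 3.7e-05) and -2.66 (SE 0.67, adjusted p = 0.0016). The basal L10 libraries held 9981 to 17387 CPM of pericyte markers and the luminal ones 190 to 322 CPM, and the part of these cells in the differences was not tested. The fit with the sort as a block called 6 genes and edgeR 5. At Id2, where 21.6% of all genes were called, 11 genes were higher in basal cells, among them the helicase genes *Mcm3* and *Mcm4*, *Cdc6*, *Rrm1*, *Pcna* and the condensin genes *Ncapg2* and *Smc4*. *Mcm3* was at 5.14, 5.99 and 10.8 CPM at Id2 in luminal and 34.5, 31.6 and 31.8 CPM at Id2 in basal cells and differed by 2.08 (SE 0.55, adjusted p = 0.0031). The block fit called 17, and 4 were called without the basal Id2 libraries of replicates 2 and 6. At Id2 fibroblast markers were at 3420 to 75980 CPM in basal and 290 to 5477 CPM in luminal libraries. Endothelial markers were at 604 to 19249 CPM and 146 to 406 CPM, and pericyte markers at 2703 to 11923 CPM and 205 to 344 CPM. Macrophage markers were lower in basal libraries, at 191 to 1507 CPM against 2679 to 4393 CPM, most of it *Cd14*, at means of 665 and 3124 CPM. The part of these cells in the differences at Id2 was not tested.

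In the mitosis mean, libraries of 1 group differed most at M4, Iw4 and basal Id2. The M4 library of replicate 2 was the highest of its group for 53 of the 56 genes in basal and 49 in luminal cells, and the Iw4 library of replicate 5 was the lowest for 50 and 51. At P3.5 the library of replicate 4 was the lowest for 41 basal and 51 luminal genes, and at Id2 the basal library of replicate 6 was the highest for 43. Since the luminal and basal libraries of a number come from 1 sort, their deviations from the group means were set side by side. For the mitosis mean, both deviations had the same sign in 16 of 22 sorts, as for the S-phase mean. M4 replicate 2 deviated by 0.74 in luminal and 1.56 in basal cells, and Iw4 replicate 5 by -1.19 and -1.18. At Id2, replicate 6 deviated by 0.32 and 1.09 and replicate 2 by -0.61 and -0.89.

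Across libraries the mitosis genes followed each other closely. Each gene's log2(CPM + 1) was correlated with the mean of the 27 mitosis genes, the gene itself left out, over the 24 luminal and the 22 basal libraries; the libraries share time points and sorts, and these values are a description. For mitosis genes the median r was 0.90 in luminal and 0.93 in basal cells, and 25 of 27 were above 0.8 in both. *Kif11* was the closest, with r of 0.97 and 0.98, and *Bub3* was the farthest, with 0.77 and 0.51. S-phase genes had a median r of 0.86 and 0.85, and cyclin A2 (*Ccna2*) 0.96 and 0.95. The inhibitor *Cdkn1a* had r of -0.32 and -0.45, *Ccnd3* -0.25 and -0.07, *Ccnd2* -0.35 and 0.28, and *Cdkn1b* 0.43 and -0.66.

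Per kilobase of exon, the most abundant of the 56 genes at P3.5 in luminal cells were *Cdkn1a* at a mean of 142 CPM per kb, *Ccnd1* at 126, *Pcna* at 60.8, *Cdk4* at 48.3 and *Mki67* at 44.2. In basal cells they were *Cdkn1a* at 85.7, *Ccnd1* at 78.2, *Pcna* at 74.7, *Cdk4* at 61.9 and *Smc4* at 61.4 CPM per kb. *Ccnb2*, at 32.9 CPM per kb in luminal cells, was above *Ccnb1* at 3.03 and *Cdk1* at 4.92. The size of this gap depends on the exon lengths used, 1531, 4217 and 4934 bases. Without division by length, the luminal P3.5 means were 50.4, 12.8 and 24.3 CPM. Of the 56 genes, 14 overlap exons of some other protein-coding gene, *Kif20a* by 29.3% of its exons, *Ccnd1* by 23.4% and *Cdk4* by 19.7%. The study does not state how reads in shared exons were counted, so the levels of these genes are less certain.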

How the data were processed

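RNA-seq values of 46 libraries of sorted luminal and basal cells were used. The authors aligned reads with GSNAP (per the submitters' processing notes) to the mouse genome (NCBI Build 37.1, mm9), counted them per Ensembl gene with HTSeq and used edgeR for normalization. Genes below 1 CPM across 3 samples, highly abundant genes of low variability and an outlier library (basal P14.5 replicate 2, not analysed here) had been removed by them. The deposited signal is thus CPM over an effective library size. Each value is a whole multiple of 1 read (100% of values within 0.01 of a whole number), so reads were recovered, 4398806 to 20023054 per library. Without molecular identifiers, amplified reads are not separate molecules, and the 3-read floor holds for counting error alone. Every column was used (0 left out).

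The study tested counts with edgeR. Because the deposited values are normalized, the main test here was limma 3.58.1 (R 4.3.3, trend) on log2(CPM + 1), with 1 mean for each of 16 groups and no covariates, which understates the change of low genes. Calls needed a 2-fold change and an adjusted p (Benjamini-Hochberg over 17078 genes) under 0.01, and F tests and interactions the adjusted p alone. Alternatives were edgeR 4.0.16 on recovered reads, other scalings, a pseudocount of 0.1 and a filter at a mean of 5 CPM. Others were the sort as a random block, an amplification batch term for Iw4 against M4 and leaving out single libraries. The scaling without milk protein genes set the sums of the other genes equal in all libraries, so it also replaced the authors' normalization factors. The step was tested on simulated data. The labels give 1 sort for luminal and basal libraries of the same number; the correlation of their deviations over all genes had a median of 0.25 over 22 sorts, 21 positive and 16 above 0.1.

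The rule for the members names genes by role and uses no measured value, but members, gene lists and tests were chosen with earlier results of these data known. Any member could be named; each library's value is given for *Mki67*, *Top2a*, *Ccnb1*, *Cdk1*, *Mcm2*, *Mcm5*, *Rrm2*, *Ccnd1*, *Ccnd2*, *Cdkn1a* and for the 2 called members with the largest change in each direction of a comparison, and of other pathway genes the 3 called with the largest change in each direction were open to naming. Symbols were matched for 16897 of 17078 identifiers, and exon lengths came from GENCODE vM21.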

Additional observations from a re-analysis of the deposited data

Results flagged for a closer look

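For 11 of the 448 pairs of a gene and a comparison of time points, the libraries of luminal cells moved one way and those of basal cells the opposite way without overlap between the groups compared. This was 2.46% of the pairs, where 1.79% of the pairs of all genes did so. The difference between the cell types was not tested for these. From P14.5 to L3 the log2 difference of *Ccna2*, cyclin A2, was -1.37 in luminal and 0.29 in basal cells, and that of the inhibitor *Cdkn1b* was -0.78 and 0.41. From L3 to L10 *Birc5*, survivin, differed by 1.14 in luminal and -1.55 in basal cells, and *Cenpa*, the centromeric histone, by 1.99 and -1.68. From L10 to Id2 *Birc5* differed by -1.86 and 1.82, the condensin gene *Smc2* by -0.93 and 0.78, and *Cdc6*, which loads the helicase, by -1.12 and 1.41. From W10 to Id2 *Cdc20* differed by -0.83 and 0.82, *Bub3* by -0.59 and 0.60, *Cdc6* by -1.02 and 1.66, and *Tk1*, thymidine kinase, by -0.96 and 0.96. None of these differences was called. The comparisons with Id2 use the basal libraries of replicates 2 and 6, with 1493 and 1199 CPM of basal markers, and those with L10 use 2 basal libraries, in 1 of which *Birc5* and *Cdc6* were listed at 0. Without replicates 2 and 6, and so with 1 basal Id2 library and no test, the basal differences from L10 were 1.52 for *Birc5*, 0.66 for *Smc2* and 1.04 for *Cdc6*, and those from W10 were 0.44 for *Cdc20*, 0.36 for *Bub3*, 1.29 for *Cdc6* and 1.05 for *Tk1*. In luminal Id2 libraries *Cdc6* was at 0.593, 0.561 and 0.203 CPM, at or under 3 reads.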

How the results depend on the processing

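The alternatives were followed for 49 named results, which do not cover each called gene named above. None of these changed the sign of its difference. The median of the 56 members did in basal Iw4 minus Id2, from -0.03 to 0.51 without the milk protein genes in the scaling and 0.01 with edgeR, and between cell types at P14.5, from 0.02 to -0.07 without the milk protein genes, -0.01 with the filter and -0.01 with edgeR. The single member called in basal Iw4 minus Id2 was higher in the limma fit, and edgeR called 1 lower. Of the repeated counts of called members and of promoters with a match, 309 stayed within 1.5 times the reported value and 79 did not. Of the repeats for single named genes, 458 kept the call and 128 lost it, so that 20 of 49 named results kept their call under each alternative. The cause was not tested for any of these changes.

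edgeR on the recovered reads called 16 members in luminal P3.5 minus W10, 1 in luminal and 4 in basal P14.5 minus P3.5, and 1 between cell types at W10 and 5 at L10. A pseudocount of 0.1 gave 1 in luminal P14.5 minus P3.5, 1 in basal L10 minus L3 and 6 between cell types at L10. With the milk protein genes left out of the scaling, the counts were 4 in luminal P14.5 minus P3.5, 4 in luminal Id2 minus L10, 16 in luminal and 2 in basal Iw4 minus Id2, 1 in basal L3 minus P14.5, 0 in basal Id2 minus W10 and 2 between cell types at L3. Median-ratio scaling gave 2 in basal Iw4 minus Id2, and the filter at a mean of 5 CPM gave 2 in basal L3 minus P14.5. Without the basal Id2 libraries of replicates 2 and 6, chosen after seeing the data, the counts were 1 in basal Id2 minus L10, 0 in basal Iw4 minus Id2, 0 in basal Id2 minus W10 and 4 between cell types at Id2. With the sort as a replicate block, which pairs luminal and basal libraries, the counts were 1 in basal L3 minus P14.5, 6 between cell types at L10 and 17 at Id2, and no other count moved by more than 1.5 times. In promoter windows of 150 bases before to 50 after the start, 17, 19 and 5 of 23 mitosis promoters held the CHR word, CCAAT and an E2F word, and 1, 7 and 7 of 12 S-phase promoters.

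Leaving out single libraries gave 3 to 24 called members in luminal and 37 to 44 in basal P3.5 minus W10, 0 in luminal and 1 to 6 in basal P14.5 minus P3.5, 1 to 4 in luminal and 0 to 1 in basal L3 minus P14.5, and 0 to 1 in luminal L10 minus L3. The ranges were 1 to 5 in luminal and 1 to 5 in basal Id2 minus L10, 1 to 11 in luminal and 0 to 3 in basal Iw4 minus Id2, and 2 in luminal and 0 to 3 in basal Id2 minus W10. Between cell types they were 1 to 2 at W10, 2 to 4 at L3, 2 to 8 at L10, 6 to 16 at Id2 and 1 to 2 at M4, and for the test over time points 33 to 43 in luminal and 38 to 52 in basal cells. Where 1 library was left in a group, it was assumed to vary like the other groups.

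With the milk protein genes left out of the scaling, the median of all genes shifted by 0.43 in luminal and 0.40 in basal Iw4 minus Id2. It shifted by -0.31 and -0.23 in Id2 minus W10 and by -0.17 in luminal Id2 minus L10. The shifts were -0.16 and -0.19 in L3 minus P14.5, and -0.16 and -0.11 in P14.5 minus P3.5. In luminal P3.5 minus W10 the shift was 0.11, and between cell types at P3.5 and L10 it was -0.12 and -0.20. That scaling also replaced the authors' normalization factors, so the part of the milk protein genes in these shifts was not tested. They were 1.15 to 5.15% of the reads of basal Id2 and 0.32 to 1.65% of those of basal Iw4 libraries. Levels near 0.17 to 1.05 CPM, the worth of 3 reads, are imprecise: *Birc5* and *Cdc6* in the basal L10 library of replicate 6 were listed at 0, and *Cdc6* in luminal Id2 libraries was at or under 3 reads.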

Other observations

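Genes of the cell cycle lists beyond the 56 were also called by the same limma rule. Those named here were among the called ones with the largest changes, and their number was not compared with that of the 56. In luminal cells the retinoblastoma gene *Rb1* rose from L10 to Id2 by 2.28 and *Ccng1*, a p53 target that encodes cyclin G1, by 2.04 on the log2 scale, while *Trp53*, the p53 gene, fell by 1.27. From W10 to Id2 luminal *Ccng1* rose by 2.39. From P14.5 to L3 in luminal cells the clamp loader subunit *Rfc4*, the primase subunit *Prim1* and the DNA polymerase alpha subunit *Pola1* fell by 2.30, 2.19 and 2.10, and *Btg2* rose by 1.92. From P3.5 to P14.5 *Lig1*, DNA ligase 1, and *Tipin*, of the fork protection complex, fell in luminal cells by 1.74 and 1.68 and *Myc* rose by 1.28, while in basal cells the kinetochore gene *Spc24* fell by 2.97 and *Cdkn1c*, the CDK inhibitor p57, rose by 2.53. Fibroblast markers were at 407 to 891 CPM in basal P3.5 and 6429 to 12581 CPM in basal P14.5 libraries, and pericyte markers at 88 to 155 CPM and 1296 to 1444 CPM. Luminal macrophage markers were at 408 to 526 CPM at W10, 267 to 510 CPM at P14.5, 1041 to 1620 CPM at L3, 793 to 1570 CPM at L10 and 2679 to 4393 CPM at Id2. Most of each sum was *Cd14*, at means of 454, 332, 1194, 1040.5 and 3124 CPM. From W10 to P14.5 *Cd14* was lower and the other markers of the list were higher. From P14.5 to L3 the others went both ways. The part of fibroblasts, pericytes and macrophages in the changes was not tested.

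Outside all lists, the genes whose log2(CPM + 1) was most correlated with the mean of the 27 mitosis genes were, in 24 luminal libraries, *Slfn9* (Pearson r 0.940), *Neil3* (0.930), *Pclaf* (0.918), *Parpbp* (0.917) and *Hist1h1b* (0.917), and in 22 basal libraries *Kntc1* (0.957), *Pclaf* (0.956), *Parpbp* (0.947), *Diaph3* (0.941) and *Neil3* (0.934). Of the 50 genes beyond the 56 that were most like the mean, 37 in luminal and 42 in basal cells belonged to the pathway lists. The libraries share time points and sorts, and these values are a description.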
